A study of Homo sapiens with 31 samples.

Results

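Connexins are the proteins of gap junctions, and 4 of their genes, GJA1, GJB2, GJB5 and GJB6, were followed here in MCF10A, a cultured line of human breast epithelium that is not transformed. They were chosen by gene name with results of these same counts in view, so their values are given as a description and no test is applied to them. They are 4 of the 21 connexin genes and of the 56269 gene names in the count files. Poly(A) RNA was measured in 31 libraries from 11 groups. The groups were full medium with 1 µM palbociclib, an inhibitor of the kinases CDK4 and CDK6, for 9, 12, 15 or 24 h; full medium with 0.1% DMSO, its vehicle, for 3, 6, 9, 12, 15 or 24 h; and the starved cells at 0 h, taken after 2 to 3 days without serum, EGF or insulin. Both 24 h groups had 2 libraries (replicates 1 and 3) and every other group had 3. All groups, the starved cells included, were in medium with hydrocortisone and cholera toxin, an agent that raises cellular cAMP, and the full medium added horse serum, EGF and insulin. The groups follow cells from starvation into the cell cycle and set cycling cells beside cells in which CDK4 and CDK6 are blocked.

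A connexin spans the membrane, and a ring of connexins forms a hemichannel that docks with one on the neighbouring cell, so that ions and small metabolites pass between the cytoplasms. Pannexins form related channels that open to the outside of the cell. GJB2 encodes connexin 26 and GJB6 connexin 30, which are best known from the supporting cells of the inner ear and from skin, and connexin 26 is also the main connexin of mammary luminal epithelium. GJB5 encodes connexin 31.1, found in stratified epithelia. GJA1 encodes connexin 43, the most widely expressed connexin and in the breast mainly that of myoepithelial cells.

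On the GRCh38 build of the files, GJB2 lies on the minus strand of chr13:20187470-20192898 with 2427 bases of exon, and GJB6 on the same strand at chr13:20221971-20232395 with 2646 bases, 29073 bases away. GJB5 lies on the plus strand of chr1:34755047-34758512 with 1355 bases of exon. GJA1 lies on the plus strand of chr6:121435692-121449727 with 3037 bases of exon. None of the 4 shares an exonic base with another annotated gene. The 250 bases before the RefSeq start (GRCh38.p14) were available for 3 of the 4 and are shown because the genes differed so widely in level. They were searched on both strands for the AP-1 motif TGANTCA, the cAMP response element TGACGTCA, the GC box GGGCGG, the TEAD motif GGAATG, the E-box CACGTG and the TATA box TATAAA. Capitals mark a match.
GJB2 promoter, chr13:20192939-20193188, minus strand: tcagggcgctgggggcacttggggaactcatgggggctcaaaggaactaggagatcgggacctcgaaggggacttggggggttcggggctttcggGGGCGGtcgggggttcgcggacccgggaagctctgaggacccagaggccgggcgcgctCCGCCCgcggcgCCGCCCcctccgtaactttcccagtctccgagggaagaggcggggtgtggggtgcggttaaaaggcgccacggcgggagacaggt
GJA1 promoter, chr6:121435396-121435645, plus strand: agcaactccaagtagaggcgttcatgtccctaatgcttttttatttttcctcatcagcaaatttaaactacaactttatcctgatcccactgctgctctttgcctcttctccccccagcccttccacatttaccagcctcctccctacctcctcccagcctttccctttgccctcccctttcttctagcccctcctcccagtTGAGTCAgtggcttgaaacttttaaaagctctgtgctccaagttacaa
GJB6 promoter, chr13:20230979-20231228, minus strand: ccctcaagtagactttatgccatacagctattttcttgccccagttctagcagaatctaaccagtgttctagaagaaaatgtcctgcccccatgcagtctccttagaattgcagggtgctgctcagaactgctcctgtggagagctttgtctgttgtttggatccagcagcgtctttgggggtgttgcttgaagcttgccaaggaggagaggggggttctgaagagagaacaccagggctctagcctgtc
The GJB2 stretch was 70.0% G and C with 25 CG pairs, against medians of 58.0% and 11 CG pairs over 35116 promoters of the same length. It held 3 GC boxes, whose first bases lie 155, 97 and 85 bases before the start, the last 2 as the reverse complement CCGCCC. The GC box was present in 42.6% of all promoters. The GJA1 and GJB6 stretches were 48.0% and 50.8% G and C with 1 CG pair each. GJA1 held 1 AP-1 motif, TGAGTCA, beginning 48 bases before the start, a motif found in 6.57% of promoters. GJB6 held none of the 6 motifs. Its stretch lies inside the GJB6 span used for counting, which reaches base 20232395, so it is not the sequence before that outermost start. The cAMP response element (1.65% of promoters), the TEAD motif (11.9%), the E-box (6.34%) and the TATA box (10.7%) were in none of the 3. A match is a match of letters and says nothing of binding.

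Libraries held 10342358 to 20878364 gene counts. Levels are CPM values, the counts scaled to a common library total after TMM normalization. A ± beside a level is the SD over a group's libraries, and differences are log2 fold changes ± SE from an edgeR fit of all 31 libraries. The edgeR quasi-likelihood test was applied to 15787 genes, and a gene was called at a Benjamini-Hochberg adjusted p below 0.05. Of the 8 breast epithelial markers, 7 were well expressed, but KRT19 had at most 5 counts in any group. The markers' summed level was 5101 to 11131 CPM per library. Those of blood, endothelium and fibroblasts summed to 11.3 to 29.8 CPM, nearly all of it COL1A1. The proliferation gene MKI67 averaged 7.43 ± 0.61 CPM with palbociclib at 24 h and 827 ± 82.4 CPM with DMSO at 24 h. Replicate 3 of the 4 palbociclib groups and of DMSO at 24 h lay apart from replicate 3 of the other groups on the main axis of within-group variation (27.5% of it), and values without these 5 libraries are given beside the results that moved. Leaving them out leaves 1 library in each arm at 24 h, which is then assumed to vary like the other groups. On this axis the 2 scores of a 24 h group mirror each other, so they cannot show which library lay apart. Replicate 2 with palbociclib at 12 h departed too (−12.9), where replicate 2 of 0 h and of DMSO up to 15 h scored 12.0 to 24.8. In a bulk sample, a change in the number of cells that express a gene and a change in RNA per cell cannot be told apart.

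GJB2 was almost silent in starved cells and was at its highest in the first libraries taken after release. At 0 h it had 19, 47 and 27 counts, or 1.24, 2.71 and 1.61 CPM in replicates 1, 2 and 3. With DMSO it had 543, 557 and 517 CPM at 3 h, and 340.3, 362 and 335 CPM at 6 h. These 6 libraries were the highest of the 31 and far above every other library. At 9 h DMSO it had 141, 121 and 123 CPM, at 12 h 84.6, 97.2 and 91.2 CPM, at 15 h 99.7, 110.0 and 96.8 CPM, and at 24 h 65.5 and 72.3 CPM. The level thus lay far below its early value at the later times and still far above that of starved cells.

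As a difference from 0 h, GJB2 was higher by 8.16 ± 0.13 on the log2 scale at 3 h DMSO (539 ± 19.9 against 1.85 ± 0.76 CPM), a fitted fold with a 95% interval of 239 to 341. The interval rests on few counts at 0 h and covers the spread between these libraries only. At 6, 9, 12, 15 and 24 h the difference was 7.52 ± 0.13, 6.09 ± 0.13, 5.59 ± 0.14, 5.76 ± 0.14 and 5.19 ± 0.15. Every DMSO library was above every 0 h library at each time. Over all tested genes, 62.2%, 73.5%, 75.1%, 75.7%, 76.7% and 75.7% were called in either direction against 0 h at the 6 times, so a difference from starved cells is by itself common.

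Between successive DMSO times the steps of GJB2 were unequal. The level at 6 h differed from that at 3 h by −0.64 ± 0.08 on the log2 scale, and that at 9 h from 6 h by −1.43 ± 0.08, the largest step after 3 h. The next steps were −0.50 ± 0.08 (12 h against 9 h), 0.17 ± 0.08 (15 h against 12 h) and −0.57 ± 0.10 (24 h against 15 h). The libraries of 12 h and 15 h overlapped, and those of the other 4 pairs of neighbouring times did not. The share of all tested genes called in these 5 steps was 57.6%, 34.8%, 15.2%, 7.01% and 29.6%.

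**Figure D1:**
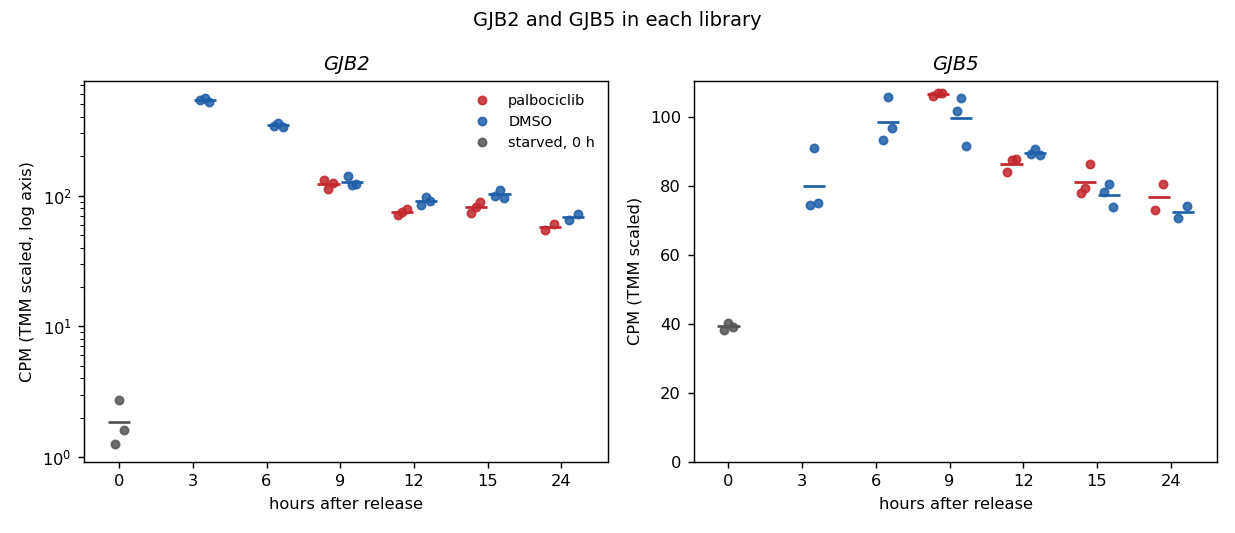
GJB2 (left, log axis) and GJB5 (right, linear axis from 0) in every library, in CPM scaled with TMM factors, against hours after release. Points are libraries, bars are group means, with palbociclib in red, DMSO in blue and starved cells in grey. GJB2 sits between 517 and 557 CPM at 3 h DMSO and between 1.24 and 2.71 CPM at 0 h, while GJB5 stays between 38.3 and 107 CPM throughout.

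GJB5 was well expressed in starved cells and varied far less than GJB2. It had 38.3, 40.3 and 39.1 CPM at 0 h, close together. With DMSO it had 74.3, 91.0 and 74.9 CPM at 3 h, 93.1, 106 and 96.7 CPM at 6 h, and 102, 105 and 91.5 CPM at 9 h. All of these were above the 0 h libraries, and 6 h and 9 h overlapped. It had 89.3, 90.8 and 88.8 CPM at 12 h, 78.2, 80.4 and 73.8 CPM at 15 h, and 70.7 and 74.1 CPM at 24 h. Its highest mean thus came at 9 h (99.6 ± 7.20 CPM), later than that of GJB2, and its levels at 24 h and at 15 h overlapped.

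The difference of GJB5 from 0 h on the log2 scale, at 3, 6, 9, 12, 15 and 24 h DMSO, was 1.03 ± 0.07, 1.33 ± 0.07, 1.34 ± 0.07, 1.19 ± 0.07, 0.98 ± 0.07 and 0.88 ± 0.08. Scaling by library totals in place of TMM factors shifted the median of all genes against 0 h by −0.17, −0.11 and −0.12 on the log2 scale at 3, 15 and 24 h, and under it GJB5 stood at 0.87 above 0 h at 3 h. Between DMSO times, 6 h differed from 3 h by 0.30 ± 0.07 with no overlap, 12 h from 9 h by −0.15 ± 0.07, and 15 h from 12 h by −0.21 ± 0.07. The nearest libraries of 3 h and 6 h had 91.0 and 93.1 CPM. Over all tested genes, 57.6%, 15.2% and 7.01% were called in these steps. Against 0 h, 62.2% to 76.7% were called at the DMSO times, so such differences are by themselves common.

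GJA1 and GJB6 were at the edge of detection in every group, and neither passed the filter on low counts. GJA1 had 40 counts in all 31 libraries together, in 19 of them, with at most 4 in any library. It had no count at 0 h (0 of 46478479, which allows up to 0.0645 CPM). With palbociclib the libraries had 3, 0 and 0 counts (9 h), 1, 4 and 0 counts (12 h), 3, 2 and 1 counts (15 h), then 2 and 0 counts (24 h). With DMSO they had 1, 0 and 4 counts (3 h), 3, 0 and 2 counts (6 h), 0, 1 and 0 counts (9 h), 2, 1 and 3 counts (12 h), 0, 2 and 3 counts (15 h), then 1 and 1 counts (24 h). No time or treatment stands out, and the highest pooled level, 0.130 CPM with palbociclib at 15 h, had an exact 95% Poisson interval of 0.0477 to 0.283 CPM. These limits and intervals cover counting error only.

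The low count of GJA1 needs care because the gene has a processed copy, GJA1P1, and the authors' counting left out reads that map to more than 1 place. Of the 3078 windows of 75 bases, the read length, in a GJA1 transcript, 2.92% were identical to a stretch of another gene's transcript and 21.7% were within 2 mismatches of one. GJA1P1 was the most similar gene, with 96.8% identity over 1146 bases, and it had 23 counts in all, at most 4 in a library. The remaining windows had no such match among annotated transcripts, and sequence outside these was not searched. The part that multi-mapping played in the low count was not tested.

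GJB6 had 33 counts in all, in 20 libraries, with at most 5 in a library. It had none at 0 h, none in either DMSO library at 24 h (0 of 34019750 counts, which allows up to 0.0882 CPM) and none in either palbociclib library at 24 h (0 of 25126837, up to 0.119 CPM). With palbociclib the libraries had 1, 2 and 4 counts (9 h), 0, 1 and 2 counts (12 h), then 1, 1 and 1 counts (15 h). With DMSO they had 1, 1 and 1 counts (3 h), 1, 5 and 2 counts (6 h), 2, 2 and 1 counts (9 h), 1, 1 and 0 counts (12 h), then 0, 2 and 0 counts (15 h). The pooled level was highest at 6 h DMSO, 0.174 CPM with an interval of 0.0751 to 0.343 CPM, which overlaps the limit that the count of 0 allows at 24 h DMSO. No window of a GJB6, GJB2 or GJB5 transcript came within 2 mismatches of another gene. GJB6 and GJB2 transcripts were 76.0% identical over 642 bases.

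**Figure D2:**
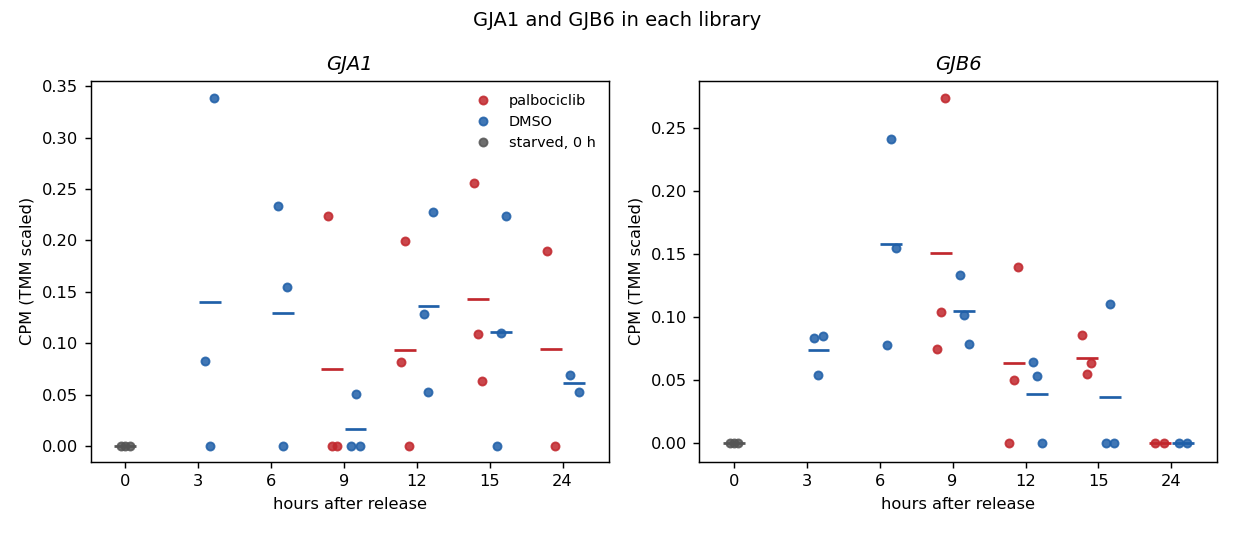
GJA1 (left) and GJB6 (right) in every library, in CPM scaled with TMM factors on linear axes, against hours after release. Points are libraries, bars are group means, with palbociclib in red, DMSO in blue and starved cells in grey. No library reaches 0.34 CPM, and both genes are at 0 in the starved libraries.

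With palbociclib, GJB2 was slightly below DMSO from 12 h on and GJB5 was close to DMSO throughout. GJB2 had 133, 113 and 126 CPM with palbociclib at 9 h, against 141, 121 and 123 CPM with DMSO, and the groups overlapped. It had 71.8, 74.6 and 78.8 CPM with palbociclib at 12 h, 73.7, 81.7 and 89.4 CPM at 15 h, and 54.5 and 61.2 CPM at 24 h. At each of these 3 times every palbociclib library was below every DMSO library, and the size was small beside the change over time. At 24 h this order rests on 2 libraries per arm. The share of all tested genes whose libraries separate in this way was not counted, here or for GJB5 below.

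The log2 fold change of GJB2, palbociclib over DMSO, was −0.05 ± 0.08, −0.28 ± 0.09, −0.32 ± 0.08 and −0.25 ± 0.11 at 9, 12, 15 and 24 h. The 95% interval of the fold was 0.862 to 1.08 for the first of these times, 0.734 to 0.926 for the second, 0.713 to 0.897 for the third and 0.726 to 0.975 for the last. Intervals of GJB2 and GJB5 are unadjusted. They are not read as a test, since these genes were chosen with results of these counts in view. Without the 5 replicate 3 libraries described above, the values were −0.07, −0.31, −0.39 and −0.28. The share of all tested genes called in either direction was 1.19%, 5.64%, 10.9% and 18.0% at these times. Against starved cells, GJB2 with palbociclib stood higher by 6.03 ± 0.13, 5.31 ± 0.14, 5.44 ± 0.14 and 4.94 ± 0.15 at 9, 12, 15 and 24 h, in comparisons that share the 0 h libraries with those of DMSO.

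GJB5 had 106, 107 and 107 CPM with palbociclib at 9 h, the highest of its group means (107 ± 0.455 CPM), and all 3 were above the DMSO libraries of that time. It had 84.0, 87.3 and 87.6 CPM with palbociclib at 12 h, all just below DMSO. At 15 h it had 78.0, 79.4 and 86.2 CPM, and at 24 h 73.0 and 80.5 CPM, and at both times the groups overlapped. The log2 fold changes were 0.10 ± 0.07, −0.05 ± 0.07, 0.07 ± 0.07 and 0.09 ± 0.08 at 9, 12, 15 and 24 h. The 95% intervals of the fold lay between 0.881 and 1.19. The sign at 24 h turned, to −0.01, without palbociclib 24 h replicate 3. For GJA1 and GJB6, a difference between palbociclib and DMSO was not detectable at this depth.

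**Figure D3:**
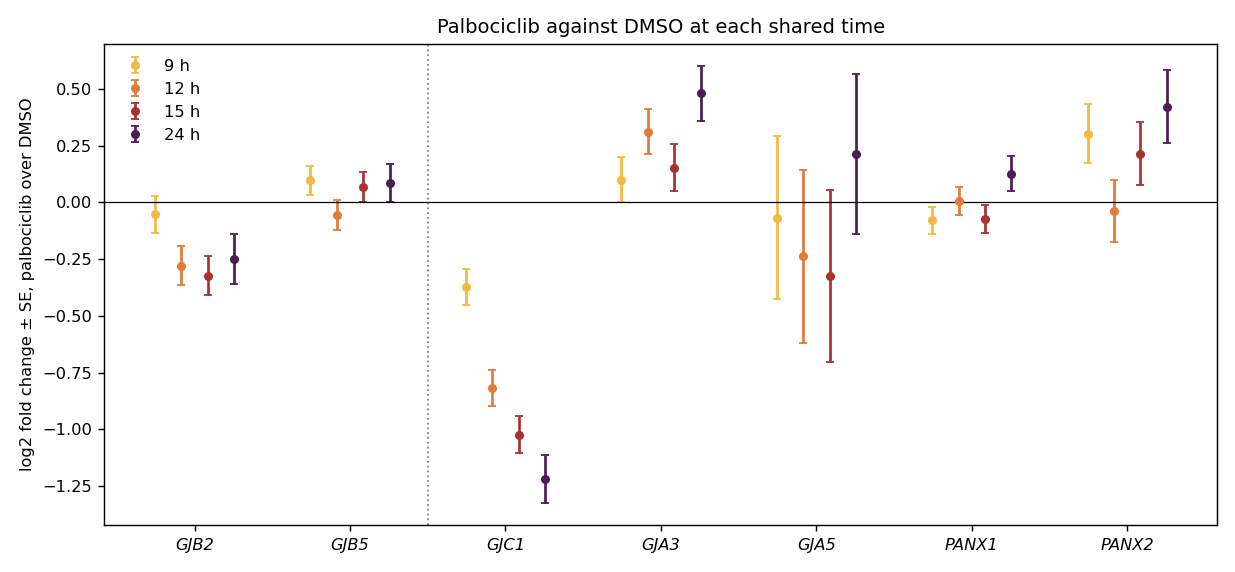
Log2 fold change of palbociclib over DMSO with its SE, at 9, 12, 15 and 24 h, for GJB2 and GJB5 (left of the dotted line) and for GJC1, GJA3, GJA5, PANX1 and PANX2. GJC1 lies furthest from 0, from −0.37 at 9 h to −1.22 at 24 h, while GJB2 lies between −0.05 and −0.32 and GJB5 between −0.05 and 0.10.

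Per length of exon, the order of GJB2 and GJB5 differed between times. In starved cells GJB5 had 28.96 ± 0.753 CPM per kilobase, above GJC1 with 3.18 ± 0.234 and GJB2 with 0.764 ± 0.315. At 3 h DMSO, GJB2 stood above GJB5 with 222 ± 8.20 against 59.1 ± 6.99 CPM per kilobase. At 6 h GJB2 had 142 ± 5.98 and GJB5 72.7 ± 4.85. From 9 h on, with palbociclib and with DMSO alike, GJB5 stood above GJB2 and GJB2 above GJC1, with the means apart by more than their SD.

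The summed connexin level was 531 ± 35.0 CPM per kilobase at 3 h DMSO and 86.3 ± 2.97 at 0 h. GJB2 made up 0.879 ± 0.332% of that sum at 0 h, 41.9 ± 1.40% at 3 h and 40.6 ± 0.272% at 6 h. Its share was 20.0 ± 1.59% with palbociclib and 21.5 ± 1.40% with DMSO at 9 h, and 15.1 ± 0.692% against 17.6 ± 0.991% at 12 h. It was 17.4 ± 1.09% with palbociclib against 21.2 ± 0.870% with DMSO at 15 h, and 13.6 ± 0.431% against 16.4 ± 1.03% at 24 h. The share of GJB5 was 11.1 ± 0.643% at 3 h DMSO, when its own level was higher than at 0 h, and 33.6 ± 0.789% at 0 h, and it was 32.3 ± 0.618% with palbociclib and 30.8 ± 0.831% with DMSO at 24 h.

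**Figure D4:**
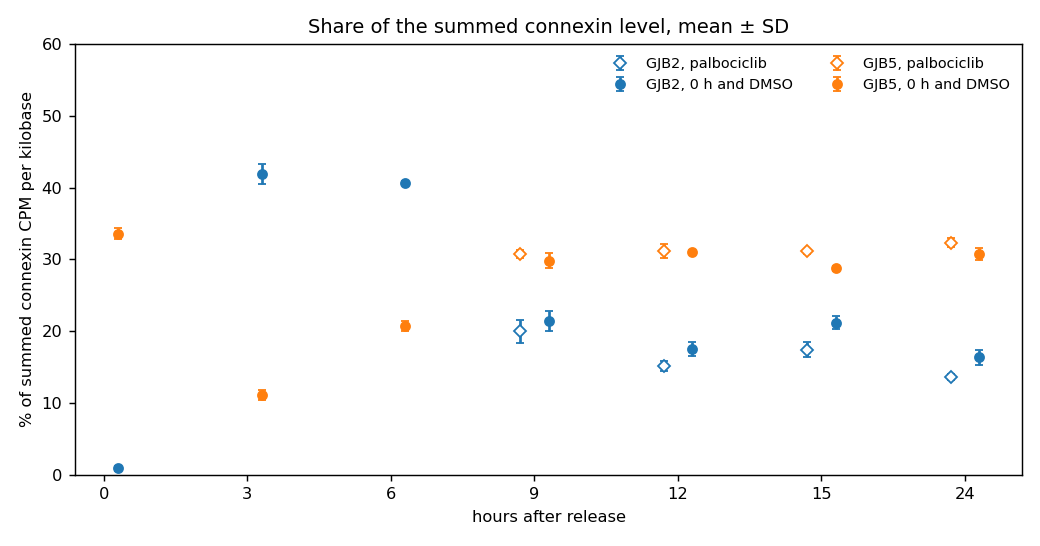
Share of the summed connexin level (CPM per kilobase of exon) held by GJB2 and GJB5, mean ± SD, against hours after release. Open diamonds are palbociclib and filled circles are 0 h and DMSO. GJB2 holds 41.9% at 3 h DMSO and 0.879% at 0 h, and from 9 h on it lies below GJB5.

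Of the 17 other connexin genes, 6 passed the filter, and so did 2 of the 3 pannexins. At 3 h DMSO against 0 h, 6 of these 8 rose and 1 fell, where 27.8% of all tested genes rose and 34.4% fell. Their median log2 fold change was 2.22, against −0.10 over all tested genes. GJC1, connexin 45 of the heart's conduction system and of smooth muscle, rose by 2.31 ± 0.08 (137 ± 5.98 against 27.6 ± 2.03 CPM, adjusted p = 1.63e-21, edgeR). GJA3, connexin 46 of the lens, rose by 3.12 ± 0.13 (22.7 ± 2.18 against 2.62 ± 0.37 CPM, adjusted p = 2.85e-19, edgeR).

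GJA5, connexin 40 of arteries and atria, did not pass at 3 h (−0.19 ± 0.30) and fell by 1.13 ± 0.33 on the log2 scale at 6 h. Its level was low, with means of 2.19 CPM at 0 h and 0.96 CPM at 6 h DMSO. At 24 h DMSO its mean was 2.34 CPM, a log2 fold change of 0.12 from 0 h that was not called. Of its exonic bases, 20.3% overlap an opposite-strand gene. PANX1, the widely expressed pannexin that releases ATP, rose by 1.10 ± 0.06 at 3 h (81.2 ± 4.94 against 38.0 ± 1.43 CPM, adjusted p = 1.04e-15, edgeR). PANX2, best known from neurons, fell by 0.36 ± 0.10 on the log2 scale at 3 h and by 2.30 ± 0.13 at 24 h DMSO (5.13 ± 0.59 against 25.4 ± 3.07 CPM, adjusted p = 1.32e-16, edgeR). The other 11 connexin genes and PANX3 had at most 7 counts in any library, and GJD2 had none.

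The neighbours of GJB2 can be set side by side. On chromosome 13, where GJA3, GJB2 and GJB6 follow each other on the same strand, GJA3 and GJB2 differed from 0 h by 3.12 and 8.16 on the log2 scale at 3 h DMSO, while GJB6, the next gene, had 3 counts in the 3 libraries of that time. Between 3 h and 6 h DMSO, GJC1 fell by 1.32 ± 0.08 on the log2 scale (adjusted p = 1.39e-15, edgeR), and GJA3 did not pass the test (0.01 ± 0.10, adjusted p = 0.922, edgeR).

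**Figure D5:**
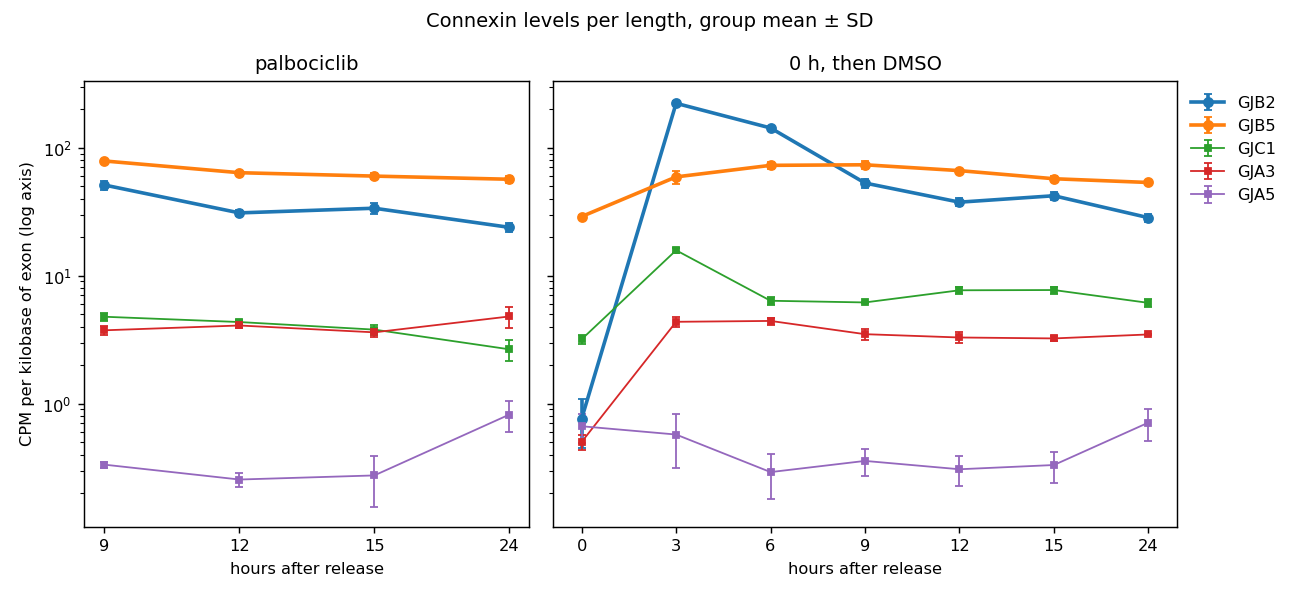
Mean level ± SD of GJB2, GJB5, GJC1, GJA3 and GJA5, in CPM per kilobase of exon on a log axis, against hours after release, with palbociclib on the left and 0 h followed by DMSO on the right. GJB2 has 222 CPM per kilobase at 3 h DMSO and 0.764 at 0 h, and GJB5 lies above it from 9 h on.

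GJC1 was the member of the family with a called difference between palbociclib and DMSO at all 4 times. It had 44.5, 40.7 and 38.8 CPM with palbociclib at 9 h, against 54.1, 52.9 and 53.4 CPM with DMSO. It had 26.1 and 19.9 CPM with palbociclib at 24 h, against 55.6 and 50.5 CPM with DMSO. At each of the 4 times all palbociclib libraries were below all DMSO libraries. On the log2 scale GJC1 fell by 0.37 ± 0.08, 0.82 ± 0.08, 1.02 ± 0.08 and 1.22 ± 0.11 at 9, 12, 15 and 24 h (adjusted p = 0.0068, 1.64e-09, 8.09e-12 and 8.03e-11, edgeR). At 9 h the call was lost without palbociclib 9 h replicate 3 (adjusted p = 0.0865).

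GJA3 rose by 0.48 ± 0.12 with palbociclib at 24 h (21.6 and 28.4 CPM against 18.2 and 17.9 CPM with DMSO, adjusted p = 0.0044, edgeR). That call was lost without palbociclib 24 h replicate 3 (0.23, adjusted p = 0.309), without DMSO 24 h replicate 3 (0.46, adjusted p = 0.0548) and without the 5 replicate 3 libraries (0.23, adjusted p = 0.524). At 12 h GJA3 stood at 0.31 ± 0.10 and missed the threshold (adjusted p = 0.0639, edgeR), though it passed without DMSO 12 h replicate 1 (0.39, adjusted p = 0.0478) and with DESeq2 size factors (0.33, adjusted p = 0.0495). None of GJA5, PANX1 and PANX2 passed at any of the 4 times in the reported fit. PANX2 stood at 0.42 ± 0.16 at 24 h (adjusted p = 0.0634, edgeR) and passed only when scaled by library totals (0.45, adjusted p = 0.0365), with adjusted p from 0.0533 to 0.449 in the other 9 alternatives.

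Beyond the channels, 4 further lists held proteins that bind or traffic connexins and the genes of tight junctions, desmosomes and adherens junctions. With the other connexins and pannexins, the 5 lists held 87 genes in the files, of which 72 were tested. At 3 h DMSO against 0 h, 44 rose and 17 fell, with a median log2 fold change of 0.38, where 27.8% of all tested genes rose and 34.4% fell with a median of −0.10. At 24 h DMSO, 30 rose and 28 fell, with a median of 0.12, where 36.7% of all tested genes rose and 38.9% fell.

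Of the 18 tested connexin partners and traffic genes, 14 rose and 2 fell at 3 h, where 27.8% of all tested genes rose and 34.4% fell. PRKCD, a protein kinase C that can phosphorylate connexins, rose by 1.60 ± 0.06 (145 ± 13.5 against 47.7 ± 3.06 CPM, adjusted p = 3.65e-20, edgeR), and MAPRE1, the microtubule end protein EB1, rose by 1.44 ± 0.06. PRKCA and PRKCE fell by 0.50 ± 0.07 and 0.45 ± 0.10 on the log2 scale. At 24 h DMSO against 0 h, 8 rose and 5 fell, where 36.7% of all tested genes rose and 38.9% fell, and PRKCD then had 32.7 ± 0.887 CPM.

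Of the 16 tested adherens junction genes, 14 rose and 2 fell at 3 h, beside the 27.8% of all tested genes that rose and the 34.4% that fell. VCL, vinculin, rose by 1.78 ± 0.06 (776 ± 92.6 against 226 ± 9.53 CPM, adjusted p = 4.6e-22, edgeR), though 11.1% of its exonic bases overlap an opposite-strand gene, and MLLT4, afadin, by 1.34 ± 0.05. AJUBA and NECTIN4 fell by 1.08 ± 0.07 and 1.10 ± 0.10 on the log2 scale. Of the 18 tight junction genes, 8 rose and 6 fell at 3 h, among them CLDN4 and OCLN, strand proteins of the junction, which rose by 3.32 ± 0.12 and 2.41 ± 0.11. At 24 h, 4 rose and 12 fell, beside 36.7% and 38.9% of all tested genes, and CLDN1, claudin 1, had 38.5 ± 4.28 against 674 ± 32.9 CPM, a log2 fold change of −4.13 ± 0.09 (adjusted p = 3.1e-27, edgeR). Of the 12 desmosome genes, 2 rose (PKP2 by 1.01 ± 0.06 and JUP by 0.35 ± 0.05) and 6 fell at 3 h, and 3 rose and 8 fell at 24 h.

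Between palbociclib and DMSO, junction genes were called at shares near those of all tested genes. By edgeR, 0 of the 72 tested were higher and 1 (GJC1) lower at 9 h, and 0 were higher and 4 lower at 12 h. The comparison at 15 h called 2 higher and 8 lower, and that at 24 h called 6 higher and 9 lower. At an unadjusted p below 0.05, 5 were higher at 9 h and 4 at 12 h, and the DESeq2 Wald test also called 0 higher at both times. As shares, 1.39%, 5.56%, 11.1% and 12.5% were called lower at the 4 times, where over all tested genes the shares were 1.08%, 4.81%, 8.79% and 12.3%. The share higher was 2.78% at 15 h and 8.33% at 24 h. Over all tested genes it was 0.114%, 0.83%, 2.15% and 5.76% at 9, 12, 15 and 24 h. At 24 h, 0 of the 72 were called higher and 6 lower without palbociclib replicate 3, and 0 higher and 3 lower without the 5 replicate 3 libraries. At 15 h 0 were called higher and 5 lower without those 5.

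CDH2, N-cadherin, fell at 12, 15 and 24 h, by 0.54 ± 0.13, 0.58 ± 0.12 and 0.57 ± 0.14 on the log2 scale, and had 12.6 ± 0.470 CPM with palbociclib against 18.8 ± 0.149 CPM with DMSO at 24 h (adjusted p = 0.00382, edgeR). Without the 5 replicate 3 libraries its call held at 15 h and was lost at 12 h (−0.53, adjusted p = 0.0581, edgeR) and 24 h (−0.61, adjusted p = 0.107, edgeR). It was also lost at 12 h without DMSO replicate 2 (adjusted p = 0.0871) and at 24 h without palbociclib replicate 1 (adjusted p = 0.059). MARVELD3, a tight junction membrane protein, fell by 0.76 ± 0.14 at 12 h and 0.99 ± 0.15 at 15 h, with 18.1% of its bases shared. At 24 h MARVELD3 was not called (−0.17, adjusted p = 0.608, edgeR). JUP, plakoglobin, rose by 0.20 ± 0.06 at 24 h (465 ± 19.2 against 404 ± 4.98 CPM, adjusted p = 0.0246, edgeR), and CDH1, E-cadherin, rose by 0.22 ± 0.07 (311 ± 18.1 against 267 ± 9.05 CPM, adjusted p = 0.0261, edgeR). Both calls were lost without the 5 replicate 3 libraries (0.16 and 0.18, adjusted p = 0.367 and 0.347, edgeR), without any one 24 h library other than palbociclib replicate 1 (adjusted p = 0.0902 to 0.347) and with no filter on low counts (adjusted p = 0.361 and 0.254).

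Among 11352 tested genes whose mean log2 CPM reached 1, those most like each expressed connexin were ranked by Pearson correlation of the 11 group means of log2 CPM. For GJB2 they were DLC1, a GTPase-activating protein, VASP, an actin elongation factor, ATP13A3, CORO1C and CCNJ, with r of 0.987 to 0.990. VASP averaged 380 CPM at 3 h DMSO and 74.9 CPM at 0 h, a far smaller range than that of GJB2. For GJB5 they were DCAF13, a ribosome biogenesis factor, MFN1, a mitochondrial fusion GTPase, CAMK2N1, PJA1 and TPD52L2, with r of 0.986 to 0.993. DCAF13 averaged 177 CPM at 6 h DMSO and 46.1 CPM at 0 h. GJB2 and GJB5 had r = 0.845 with each other, GJB2 had 0.654 with GJC1, and GJB5 had 0.975 with PANX1 and 0.322 with GJC1. These values describe 11 means that share libraries and the single step from 0 h, and carry no test.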

How the data were processed

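The labels' protocols give a KAPA stranded mRNA kit and single-end reads of 75 bases. GRCh38.p7, Subread 1.5.1, Bowtie2 2.2.9 and TopHat2 2.1.1 are named in the submitters' processing notes. Per the file headers, the authors ran featureCounts 1.5.1 with GENCODE 25 and deposited raw counts by gene name, without a strand setting and leaving out multi-mapping reads, so genes with near copies or antisense partners are uncertain. No label says whether replicates were separate cultures, so p-values reflect library-to-library spread that may be technical. Replicates differed beyond sampling noise in every group.

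Counts were analysed with edgeR 4.0.16 in R 4.3.3. The filter filterByExpr kept 15787 genes, TMM factors lay between 0.927 and 1.081, and the quasi-likelihood model had 1 term per group (31 libraries, 20 residual degrees of freedom). P-values were Benjamini-Hochberg adjusted over the 15787 genes. The common biological coefficient of variation was 6.55%. The step was tested on simulated data. Levels per length are CPM per kilobase of the exonic length in the files. Transcripts from a later GENCODE release were compared with BLAST+ 2.17.0. Sequences before gene starts are from RefSeq, GRCh38.p14.

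The 4 connexins and all gene lists were chosen with earlier results of these data known. Named genes were the 4, the other connexins and pannexins, up to 2 called genes with the smallest p per junction list, contrast and direction, the 5 genes most correlated with each of the 4 that was tested, and marker genes; some that qualified are not reported here. Alternatives were other normalizations, no filter, a replicate block, the DESeq2 1.42.0 Wald test and libraries left out.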

Additional observations from a re-analysis of the deposited data

Results flagged for a closer look

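The libraries of GJB5 with palbociclib and with DMSO did not overlap at 9 h or at 12 h, and lay in opposite orders at these times. The log2 fold change of palbociclib over DMSO was 0.097 ± 0.065 at 9 h, where every palbociclib library was higher, and −0.054 ± 0.066 at 12 h, where every one was lower. The share of all tested genes whose libraries separate like this was not counted. The difference between the times was not tested, and the orders are given only as a description.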

How the results depend on the processing

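No called change of a connexin reversed in direction under the alternatives run. Counts of genes could change order: at 15 h DMSO against 0 h the reported fit called 5911 higher and 6203 lower. With 1 library left out, up to 6182 were higher and at most 5995 lower. Without filter, 275 genes were called lower with palbociclib at 9 h (170 in the reported fit), 59 higher at 12 h (131), 145 higher at 15 h (340), and 2 junction genes higher at 24 h (6). With library totals, 595 genes were higher at 15 h and 4 junction genes higher at 15 h (2), and with DESeq2 size factors 1 junction gene was higher at 12 h (0) and 4 at 15 h. The DESeq2 Wald test gave 4 junction genes higher and 5 lower (8) at 15 h. Without the 5 replicate 3 libraries, the 9, 12, 15 and 24 h comparisons called 6, 57, 164 and 285 genes higher (18, 131, 340 and 910), and the last called 1137 lower (1937); of junction genes, 0 were higher and 5 lower at 15 h, and 0 higher and 3 lower (9) at 24 h.

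Leaving out 1 library at a time gave, for genes called higher with palbociclib, counts of 9 to 29 (9 h), 54 to 91 (12 h), 189 to 423 (15 h) and 397 to 646 (24 h), and for genes called lower at 24 h 1216 to 1727. Junction genes ranged over 0 to 1 lower at 9 h, 0 to 1 higher at 12 h, 0 to 4 higher and 5 to 6 lower at 15 h, and 0 to 6 higher and 5 to 7 lower at 24 h. At 24 h this leaves 1 sample in an arm, which is assumed to vary like the other groups. Without 0 h replicate 2, which held 47 of the GJB2 counts at 0 h, GJB2 was higher by 8.54 at 3 h DMSO.

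The replicate numbers did not pair the samples throughout: 57 of 146 same-numbered pairs had a correlation of deviations over 0.1. For 3 to 15 h DMSO against 0 h every such pair was positive, from 0.015 to 0.419. For palbociclib against DMSO at 9, 12 and 15 h the pairs ran from −0.249 to 0.113. With the replicate block, 62 genes were higher at 9 h, 240 at 12 h, and 2 and 5 junction genes were higher at 12 h and 15 h; the block changed no call of a connexin. Counts of 0 to 5 per library limit GJA1 and GJB6, and 2 libraries per arm limit 24 h.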
